A study of Mus musculus with 50 samples.

Results

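Zinc finger genes that carry the mouse name Zfp followed by a number from 500 to 999 were followed in single mouse oocytes. The oocytes were labelled as a conditional knockout of Zfp36l2 or as floxed controls. The protein of Zfp36l2 attaches to AU-rich sequences in mRNA and speeds the decay of the transcript. All 165 genes numbered from 500 to 999 among the 16614 genes of the count table were taken, by name alone and without use of their values. A further 155 Zfp genes with a number below 500 were measured in the same libraries. The knockout group held 24 oocytes from 4 cKO-Zfp36l2 females, with a conditional knockout of Zfp36l2, which gave 1, 7, 8 and 8 oocytes in mice 1 to 4. The control group held 26 oocytes from 4 F/F-Zfp36l2 females, whose Zfp36l2 alleles are floxed, with 5, 7, 7 and 7 oocytes in mice 1 to 4. All females of both groups were 5 weeks old and had received 10 IU of PMSG, a hormone that makes follicles grow. Fully grown oocytes at the germinal vesicle stage were taken 46 hours later in medium with 5 μM milrinone, which keeps them in meiotic arrest, and were stripped of cumulus cells and of the zona pellucida. The sources used here do not give the Cre line that removes Zfp36l2 or the strain background.

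C2H2 zinc finger proteins read short stretches of DNA with small loops that are each held in shape by a zinc ion. Many of the proteins encoded by these genes also carry a KRAB domain, which recruits TRIM28 (KAP1) and, through it, the histone H3 lysine 9 methyltransferase SETDB1, so that the bound DNA is packed into silent chromatin. KRAB zinc finger genes lie in clusters that duplicate quickly in rodents. They are best known for silencing retrotransposons and for protecting DNA methylation at imprinted loci in the egg and the early embryo.

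Each oocyte was sequenced as its own library, and counts were then added up within each mouse, so that the mouse was the replicate. The sums ranged from 4332108 to 44498770 counts in knockout mice and from 19967822 to 38341024 counts in floxed mice, and the lowest sum belonged to knockout mouse 1 with its single oocyte. Levels are given as CPM, counts scaled to a common total per mouse. They are relative, so a gain or loss of all mRNA together would not be seen. Zfp36l2 itself had 1.06 to 2.77 CPM in knockout mice and 1.96 to 4.17 CPM in floxed mice (log2 fold change −0.78, 95% interval from −1.76 to 0.19, edgeR quasi-likelihood test, adjusted p = 0.208). A count per gene does not tell reads of deleted sequence from reads of retained sequence, and where the reads of Zfp36l2 fall was not examined. Its count therefore does not check the labels, and "knockout" denotes the oocytes so labelled. All 12 oocyte markers were present, with a summed level of 4465 to 4986 CPM in knockout mice and 4440 to 5369 CPM in floxed mice. Of these Ddx4 was 1.91-fold and Figla 1.63-fold higher in knockout mice and Mos 1.25-fold lower, and the other 9 did not pass. The 14 measured of 16 cumulus and granulosa cell markers summed to 166 to 298 CPM in knockout mice and 167 to 235 CPM in floxed mice, among them the aromatase gene Cyp19a1 and the receptor gene Nr5a2, and of these markers Cyp11a1 alone passed the test, as lower (0 to 0.135 CPM in knockout mice and 1.85 to 6.73 CPM in floxed mice). The 2 measured of 5 blood and immune markers reached at most 6.09 CPM in knockout mice and 11.7 CPM in floxed mice, and the 2 measured of 4 theca and stroma markers at most 3.65 CPM in knockout mice and 3.63 CPM in floxed mice. The part of other cells, and of the oocyte markers that differed, in the results was not tested.

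All 165 genes had at least 1 count. Their levels spanned the range from 0.0298 CPM as a mean of the 8 mice for Zfp827 to 742 CPM for Zfp655, with a median of 25.7 CPM. A mean of 100 CPM or more was reached by 35 members, and 12 lay under 1 CPM. Per kilobase of transcript, which allows levels of different genes to be compared, Zfp655 was the most abundant, with 187 CPM per kb in knockout and 174 CPM per kb in floxed mice. Zfp961 followed with 125 CPM per kb in knockout and 89.0 in floxed mice, then Zfp616 with 85.0 in knockout and 127 in floxed mice, and Zfp932 with 84.0 in knockout and 116 in floxed mice. Together the 165 genes took 1.07% ± 0.0425 of all counts in knockout mice and 1.00% ± 0.0594 in floxed mice (SD, n = 4 each), that is 10677 ± 425 CPM in knockout and 10001 ± 594 CPM in floxed mice. The ranges of 10076 to 11070 CPM in knockout mice and 9455 to 10629 CPM in floxed mice overlapped.

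Members differed between the genotypes in both directions, and more of them were higher than lower in knockout oocytes. Counts allowed a test for 156 of the 165 genes. With edgeR's quasi-likelihood test on mouse sums and Benjamini-Hochberg adjustment over all 15029 genes tested, 35 of the 156 were higher in knockout oocytes (22.4%, where 14.4% of all tested genes were higher). A further 23 were lower (14.7%, where 13.2% of all tested genes were lower), and 98 did not pass the threshold of 0.05. In both directions together 37.2% of the tested members passed, against 27.6% of all tested genes. The median log2 fold change of knockout over floxed oocytes was 0.24 over the members and −0.006 over all tested genes. Without knockout mouse 1 the member median was 0.11, and without mouse 1 of either genotype 52 members were higher and 36 lower, where 43.9% of all tested genes passed. The 147 tested Zfp genes with lower numbers had 31 higher and 17 lower genes and a median of 0.21.

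The higher members differed 1.25-fold to 13.7-fold (median 2.82-fold), and 23 of the 35 by at least 2-fold. Among the lower members the differences were 1.24-fold to 7.32-fold (median 1.99-fold), and 11 of the 23 differed by at least 2-fold. Changes of at least 4-fold were found for 11 higher members and for 1 lower member. All 5 higher members with a mean under 5 CPM were among these 11. The 4 knockout mice lay above all 4 floxed mice for 34 tested members (21.8%, against 16.0% of all tested genes) and below them for 25 (16.0%, against 15.0% of all tested genes). Of the 58 members that passed the test, 53 showed no overlap of the groups. This count and the counts by fold were not made over all tested genes, so they describe the members alone. Of the 22 members with a mean under 5 CPM, 5 were higher and 0 lower by edgeR (3 lower at an unadjusted p under 0.05 and 2 by DESeq2), where 9.49% of all genes at that level were higher and 9.41% lower. From 5 to 50 CPM, 20 of 80 members were higher (25.0%) and 10 lower (12.5%), where 20.6% of all genes at that level were higher and 14.3% lower. At 50 CPM or more 10 of 54 were higher (18.5%) and 13 lower (24.1%), where 12.2% of all genes were higher and 14.8% lower.

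**Figure D1:**
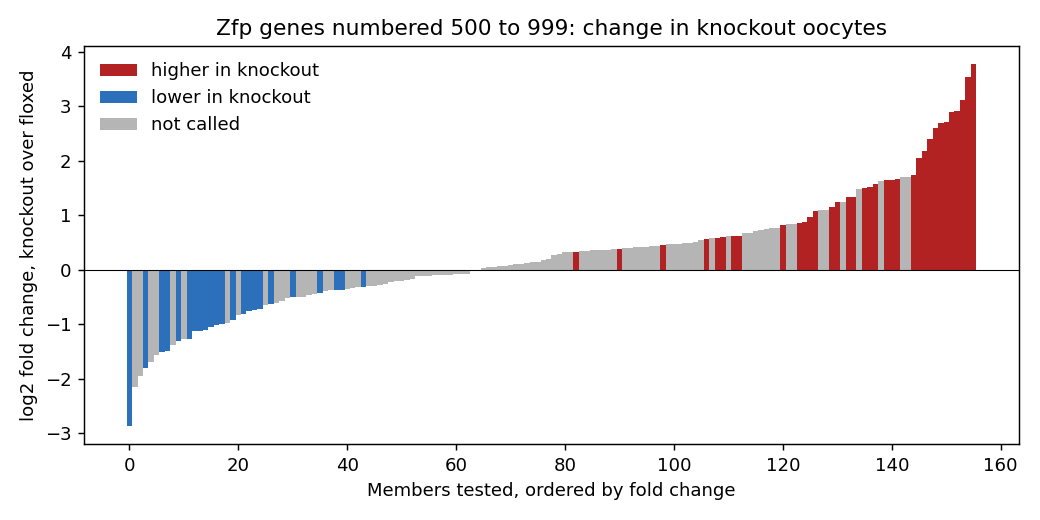
Log2 fold change, knockout over floxed (vertical axis), of the 156 tested members ordered from lowest to highest (horizontal axis), with the 35 members higher in knockout oocytes in red, the 23 lower in blue and the 98 that did not pass in grey. The longest bar above the axis is Zfp800 at 3.77 and the longest below it Zfp938 at −2.87.

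Zfp800, a C2H2 protein gene with no KRAB pattern, had the largest rise, from a level close to the detection limit in floxed oocytes. It had 16.6, 22.6, 21.8 and 8.96 CPM in knockout mice 1 to 4, against 1.85, 1.55, 0.626 and 1.02 CPM in floxed mice 1 to 4. The groups did not overlap, and the lowest knockout mouse was several times above the highest floxed mouse. The difference was 13.7-fold (log2 fold change 3.77, SE 0.45, edgeR adjusted p = 0.000683).

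Zfp953, a KRAB zinc finger gene on chromosome 13 from 67339306 to 67360605, mm10, had 44.8, 33.3, 26.4 and 29.5 CPM in knockout mice 1 to 4, against 3.66, 1.55, 4.17 and 1.92 CPM in floxed mice 1 to 4. All knockout mice were above all floxed mice, and the difference was 11.5-fold (log2 fold change 3.53, SE 0.37, edgeR adjusted p = 0.000407). Zfp954 and Zfp772 are neighbouring KRAB zinc finger genes on chromosome 7, at 7114690 to 7121488 and 7202117 to 7209998, and both were higher. Zfp954 had 42.0, 44.2, 28.2 and 33.5 CPM in knockout mice 1 to 4, against 5.56, 1.71, 5.27 and 4.12 CPM in floxed mice 1 to 4. Zfp772 had 15.2, 38.6, 28.1 and 34.2 CPM in knockout mice 1 to 4, against 3.71, 4.08, 4.85 and 8.65 CPM in floxed mice 1 to 4. Neither showed an overlap of the groups, and the changes were 8.66-fold for Zfp954 (adjusted p = 0.000668) and 5.30-fold for Zfp772 (adjusted p = 0.00223). The transcripts of these neighbours share few long stretches with any other annotated gene, 1.96% of the 50-base words for Zfp954 and 6.89% for Zfp772.

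Zfp937 and Zfp617, KRAB zinc finger genes with 14 fingers each, rose strongly with little spread among mice. Zfp937 on chromosome 2 from 150218073 to 150240725 had 204, 243, 232 and 239 CPM in knockout mice 1 to 4, against 71.1, 45.0, 58.9 and 41.6 CPM in floxed mice 1 to 4. The lowest knockout mouse was far above the highest floxed mouse, with a 4.15-fold difference (log2 fold change 2.05, SE 0.16, adjusted p = 0.000185). Zfp617 on chromosome 8 from 71908635 to 71934629 had 60.7, 88.8, 78.5 and 84.6 CPM in knockout mice 1 to 4, against 13.4, 16.7, 18.1 and 19.4 CPM in floxed mice 1 to 4, also without overlap, a 4.50-fold difference (log2 fold change 2.17, SE 0.18, adjusted p = 0.000194). Both genes have close relatives. Of the 50-base words in the transcripts, 29.4% were also present in another gene for Zfp937, mostly Zfp442, and 40.8% for Zfp617, mostly Gm18180, and the sources used here do not say how reads that fit more than 1 gene were treated, so the values of both genes are uncertain.

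Zfp704, whose annotated protein matched only 1 C2H2 finger and no KRAB pattern, had 88.6, 121, 116 and 108 CPM in knockout mice 1 to 4, against 39.6, 25.6, 39.0 and 31.0 CPM in floxed mice 1 to 4. The mice of each group lay close together and the groups were far apart, with a 3.13-fold rise (SE 0.17 on the log2 scale, adjusted p = 0.000353). The KRAB zinc finger gene Zfp715 was 2.97-fold higher, at 81.9 ± 15.4 CPM in knockout and 26.9 ± 5.21 CPM in floxed mice (SD, n = 4 each). Zfp763 on chromosome 17 was 3.35-fold higher, at 32.0 ± 10.7 CPM in knockout and 9.26 ± 3.36 CPM in floxed mice. Zfp869 was 3.16-fold higher but varied more among knockout mice, with 30.5, 93.0, 99.1 and 72.9 CPM in knockout mice 1 to 4, against 23.4, 25.8, 27.4 and 15.0 CPM in floxed mice 1 to 4. Its lowest knockout mouse, mouse 1, was only just above the highest floxed mouse. Zfp791, a KRAB gene at higher levels, had 179.8, 199, 216 and 175 CPM in knockout mice 1 to 4, against 112, 88.2, 109 and 98.3 CPM in floxed mice 1 to 4. It did not overlap either and rose 1.84-fold (SE 0.10 on the log2 scale, adjusted p = 0.000637), and it is named here because of its pattern in single oocytes.

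Of the members with a mean under 5 CPM, 5 were higher, and each was close to the detection limit in floxed oocytes. Zfp668 had 17.8, 4.30, 6.29 and 6.68 CPM in knockout mice 1 to 4, against 1.80, 1.59, 0.965 and 0.186 CPM in floxed mice 1 to 4. Knockout mouse 1 was the highest of these, the groups did not overlap, and the fold was 7.47 with a wide 95% interval on the log2 scale from 1.34 to 4.46. Zfp668 and its neighbour Zfp646 lie on opposite strands of chromosome 7 and their annotated 5′ ends overlap, and reads of such a pair cannot be told apart without strand. Zfp646 had 29.8 ± 11.2 CPM in knockout and 27.7 ± 4.10 CPM in floxed mice and did not pass (adjusted p = 0.905). Zfp637 had 5.77, 7.51, 7.01 and 7.81 CPM in knockout mice 1 to 4, against 1.95, 0.898, 0.496 and 0.961 CPM in floxed mice 1 to 4, a 6.48-fold difference without overlap (adjusted p = 0.00244). Zfp579 was 6.51-fold higher (adjusted p = 0.0153) and Zfp786 6.04-fold (adjusted p = 0.0146). The fifth, Zfp622, is described with the members of known function.

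**Figure D2:**
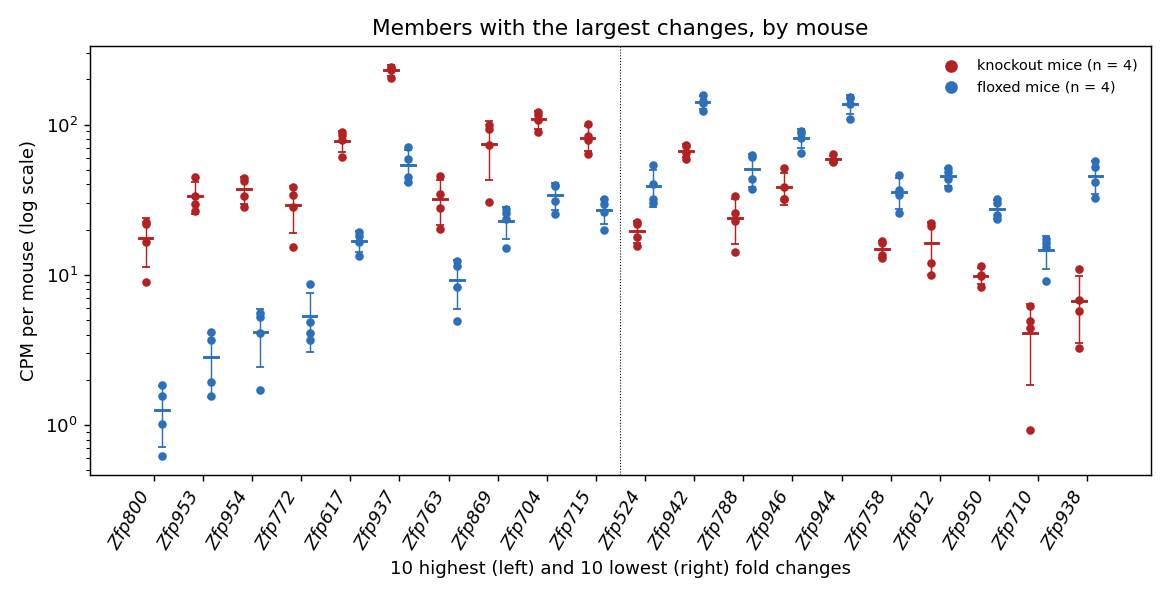
Level in each mouse in CPM (vertical axis, log scale) for the 10 members with the highest and the 10 with the lowest log2 fold changes among members that passed the test, reached a mean of at least 5 CPM and had groups that do not overlap, each with 4 knockout mice (red, left) and 4 floxed mice (blue, right). Horizontal bars are means and vertical bars SD. Zfp800 lies at 8.96 to 22.6 CPM in knockout mice and 0.626 to 1.85 CPM in floxed mice, and Zfp938 at 3.24 to 10.8 CPM in knockout mice and 32.2 to 57.2 CPM in floxed mice.

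Zfp938, a KRAB zinc finger gene with 10 fingers on chromosome 10 from 82224850 to 82241280, fell more than any other member that passed the test. It had 10.8, 5.76, 3.24 and 6.80 CPM in knockout mice 1 to 4, against 32.2, 41.2, 57.2 and 52.0 CPM in floxed mice 1 to 4. All knockout mice were far below all floxed mice, and the level was 7.32-fold lower (log2 fold change −2.87, SE 0.37, adjusted p = 0.00103). Only 0.101% of its 50-base words were found in another gene.

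Zfp710, a C2H2 gene with no KRAB pattern, had 0.923, 4.44, 6.25 and 4.89 CPM in knockout mice 1 to 4, against 9.16, 16.2, 17.3 and 15.4 CPM in floxed mice 1 to 4. It was 3.49-fold lower without overlap (adjusted p = 0.0177), with the lowest value in knockout mouse 1, and without floxed mouse 2 the adjusted p was 0.0512 (9.09e-05 to 0.0512 over the alternatives). Zfp950 had 8.31, 11.4, 9.84 and 10.0 CPM in knockout mice 1 to 4, against 23.7, 24.9, 29.9 and 31.8 CPM in floxed mice 1 to 4. The mice of each group lay close together, and the gene was 2.85-fold lower (SE 0.20 on the log2 scale, adjusted p = 0.00111). The coding sequence of the annotated Zfp950 transcript that was read spans 64 amino acids and holds a KRAB pattern but no finger pattern. Zfp612 had 9.93, 21.1, 22.0 and 11.9 CPM in knockout mice 1 to 4, against 43.4, 51.1, 48.3 and 37.7 CPM in floxed mice 1 to 4, 2.82-fold lower without overlap (adjusted p = 0.00418). Zfp788, with 23 fingers and no KRAB pattern found, was 2.17-fold lower, at 24.0 ± 7.90 CPM in knockout and 51.0 ± 12.6 CPM in floxed mice (adjusted p = 0.0158, and 0.0505 without floxed mouse 4, the highest value over the alternatives). Zfp524, whose human counterpart binds telomeric DNA, was 2.06-fold lower, at 19.5 ± 3.28 CPM in knockout and 39.2 ± 11.0 CPM in floxed mice. That value is uncertain, since 56.8% of its 50-base words are shared with another annotated gene, Gm44973.

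Among the 8 members with the highest CPM the differences were small. Zfp655 had 769 ± 43.0 CPM in knockout and 716 ± 48.0 CPM in floxed mice (SD, n = 4 each) and did not pass (adjusted p = 0.574, 95% interval of the log2 fold change from −0.11 to 0.24). Zfp616, with 18 fingers, had 235, 275, 251 and 247 CPM in knockout mice 1 to 4, against 289, 362, 425 and 434 CPM in floxed mice 1 to 4. It fell 1.54-fold (adjusted p = 0.00879), with no overlap between the groups. Zfp960 had 212 ± 13.7 CPM in knockout and 267 ± 22.6 CPM in floxed mice and was 1.29-fold lower (adjusted p = 0.0146), though 82.7% of its 50-base words are also in other genes, mostly Zfp97. Zfp961 had 278, 369, 353 and 353 CPM in knockout mice 1 to 4, against 212, 227, 271 and 256 CPM in floxed mice 1 to 4. It was 1.36-fold higher without overlap (adjusted p = 0.019), but did not pass in 4 of the 8 fits that each left out 1 mouse, namely knockout mouse 2, 3 or 4 or floxed mouse 2, with adjusted p from 0.0589 to 0.0719, the highest value over the alternatives. Zfp951 and Zfp735 were at 239.9 ± 45.3 CPM in knockout and 299.6 ± 31.2 CPM in floxed mice for Zfp951 and 218 ± 27.2 CPM in knockout and 268 ± 28.0 CPM in floxed mice for Zfp735, and did not pass (adjusted p = 0.0891 for Zfp951 and 0.0618 for Zfp735). Without knockout mouse 1 both passed as lower (adjusted p = 0.0403 for Zfp951 and 0.0102 for Zfp735), and Zfp735 also without floxed mouse 1 (0.0120).

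Members that neighbour each other in the genome did not all move in the same direction, and 1 cluster on chromosome 17 held 5 of the 8 lower members found in clusters. Runs of at least 4 members whose starts lie under 500 kb apart were taken as clusters, which gave 11 clusters with 68 members. The largest, on chromosome 17 from 21383748 to 22867134 (mm10), held 11 members, all with a KRAB pattern. Of these 5 were lower (45.5%), 2 were higher (18.2%) and 4 did not pass, where 13.2% of all tested genes were lower and 14.4% higher. The lower members were next to each other but for Zfp947, in the order Zfp942, Zfp943, Zfp947, Zfp944, Zfp758 and Zfp946.

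Zfp942 had 64.9, 72.9, 58.8 and 71.9 CPM in knockout mice 1 to 4, against 123, 158, 143 and 139.6 CPM in floxed mice 1 to 4. Zfp944 had 63.2, 58.0, 56.1 and 56.8 CPM in knockout mice 1 to 4, against 109, 137, 149 and 151 CPM in floxed mice 1 to 4. In both genes the knockout mice lay far below the floxed mice, 2.15-fold lower for Zfp942 (adjusted p = 0.000459) and 2.40-fold lower for Zfp944 (adjusted p = 0.000407). Their annotated proteins were 79.8% identical, the highest value within the cluster. Zfp943 had 50.6, 28.0, 24.9 and 24.2 CPM in knockout mice 1 to 4, against 49.6, 60.3, 66.6 and 68.0 CPM in floxed mice 1 to 4. Knockout mouse 1 stood apart and overlapped the lowest floxed mouse, while the other knockout mice were lower than all floxed mice. Zfp943 was 1.99-fold lower (adjusted p = 0.0192, and 0.0571 without floxed mouse 4, the highest value over the alternatives). Zfp758 had 12.9, 16.3, 13.6 and 16.8 CPM in knockout mice 1 to 4, against 25.9, 33.9, 46.2 and 36.9 CPM in floxed mice 1 to 4, a 2.46-fold difference without overlap (adjusted p = 0.00292). Zfp946 had 51.0, 31.8, 31.8 and 38.5 CPM in knockout mice 1 to 4, against 64.5, 81.3, 88.4 and 89.9 CPM in floxed mice 1 to 4, 2.19-fold lower without overlap (adjusted p = 0.00317).

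The higher members of the same cluster were Zfp947, between the lower ones, and Zfp677 at the edge. Zfp947 had 31.4, 75.1, 59.7 and 77.0 CPM in knockout mice 1 to 4, against 20.8, 20.4, 24.0 and 17.4 CPM in floxed mice 1 to 4. All knockout mice were above all floxed mice, a 2.88-fold rise (adjusted p = 0.00338), though 20.0% of its 50-base words are shared with other genes, mostly Zfp995. Zfp677 was 2.36-fold higher, at 46.3 ± 15.4 CPM in knockout and 19.2 ± 4.55 CPM in floxed mice (SD, n = 4 each, adjusted p = 0.0108). Zfp820 had 44.8 ± 21.6 CPM in knockout and 46.8 ± 4.57 CPM in floxed mice, Zfp760 had 37.1 ± 7.21 CPM in knockout and 31.2 ± 4.13 CPM in floxed mice, Zfp948 had 11.2 ± 6.12 CPM in knockout and 6.48 ± 3.04 CPM in floxed mice and Zfp945 had 9.39 ± 4.01 CPM in knockout and 6.40 ± 2.69 CPM in floxed mice, and none of the 4 passed (edgeR adjusted p from 0.308 to 0.86), though without knockout mouse 1 Zfp948 did, as higher (adjusted p = 0.0457).

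**Figure D3:**
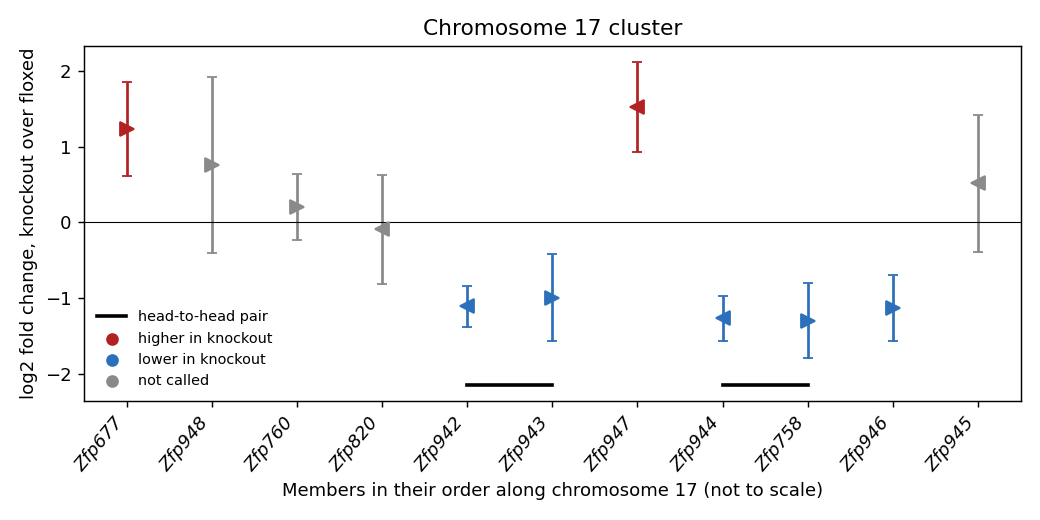
Log2 fold change, knockout over floxed, with its 95% interval (vertical axis) for the 11 members of the chromosome 17 cluster in their order along the chromosome (horizontal axis, not to scale). Arrowheads point in the direction of transcription, colours mark the result of the test, and black bars join the 2 head-to-head pairs, whose 4 genes lie between −1.30 and −0.99.

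Of the 5 lower members of this cluster, 4 form 2 head-to-head pairs, and Zfp946 is in no pair. In the annotation Zfp942 and Zfp943 start 88 bases apart on opposite strands, and Zfp944 and Zfp758 start 53 bases apart. The promoter windows of the 4 paired genes are shown because they differ so little between the pairs. They run from 250 bases before to 50 bases after each RefSeq start and are read on the strand of the gene, 5′ to 3′, from RefSeq's GRCm38.p6 (the mm10 build). Zfp942 is at chr17:21962415-21962714 on the minus strand, Zfp944 at chr17:22361351-22361650 on the minus strand, Zfp943 at chr17:21962309-21962608 on the plus strand and Zfp758 at chr17:22361213-22361512 on the plus strand. Capitals mark the palindrome CACGTG, the core of an E-box, which reads the same on both strands.
Zfp942: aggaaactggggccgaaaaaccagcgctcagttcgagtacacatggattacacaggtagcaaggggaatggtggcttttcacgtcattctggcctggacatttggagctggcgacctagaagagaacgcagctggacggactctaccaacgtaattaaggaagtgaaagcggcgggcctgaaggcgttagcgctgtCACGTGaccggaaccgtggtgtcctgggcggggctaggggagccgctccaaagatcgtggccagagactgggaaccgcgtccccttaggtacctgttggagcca
Zfp944: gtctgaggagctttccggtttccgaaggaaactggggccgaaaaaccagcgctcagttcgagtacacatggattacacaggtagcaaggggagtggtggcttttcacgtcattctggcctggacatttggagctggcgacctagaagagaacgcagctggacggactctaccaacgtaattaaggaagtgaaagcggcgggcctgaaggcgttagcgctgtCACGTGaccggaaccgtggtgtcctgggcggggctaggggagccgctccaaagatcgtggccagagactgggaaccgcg
Zfp943: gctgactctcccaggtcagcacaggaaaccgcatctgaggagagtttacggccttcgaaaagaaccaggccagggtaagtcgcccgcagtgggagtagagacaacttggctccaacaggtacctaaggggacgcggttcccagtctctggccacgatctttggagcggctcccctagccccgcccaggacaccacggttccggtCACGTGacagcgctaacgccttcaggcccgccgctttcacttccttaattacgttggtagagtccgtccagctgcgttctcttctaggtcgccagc
Zfp758: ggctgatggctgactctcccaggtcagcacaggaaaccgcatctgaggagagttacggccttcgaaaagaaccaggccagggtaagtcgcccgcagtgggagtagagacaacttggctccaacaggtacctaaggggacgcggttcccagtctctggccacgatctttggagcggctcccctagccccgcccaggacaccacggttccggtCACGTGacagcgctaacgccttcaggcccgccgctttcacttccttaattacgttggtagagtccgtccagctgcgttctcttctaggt
The windows of Zfp943 and Zfp758 were 97.3% identical and those of Zfp942 and Zfp944 91.3%, where the next most similar windows in the cluster, those of Zfp820 and Zfp947, reached 68.3%. Within a pair the windows overlap, so the capitals mark 1 stretch of DNA that both genes of a pair share. CACGTG was searched for on both strands because it was seen in these windows, after the values were known. It was present in 7.15% of 32851 promoter windows, and in 16 of the 168 windows of members (9.52%), which belong to 16 of the 137 members with a window. In the cluster it was in 7 of the 11 windows, those of the 5 lower members, of Zfp947, which was higher, and of Zfp820, which did not pass.

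A cluster on chromosome 13, from 67038596 to 67687071, held 7 members, of which 4 were higher (57.1%) and 0 lower by edgeR (0 lower also at an unadjusted p under 0.05 and by DESeq2). Of all tested genes 14.4% were higher and 13.2% lower. Besides Zfp953 these were Zfp712, Zfp595 and Zfp708. Zfp712 had 5.77, 11.2, 11.8 and 9.10 CPM in knockout mice 1 to 4, against 4.96, 2.61, 3.60 and 3.60 CPM in floxed mice 1 to 4, 2.53-fold higher without overlap (adjusted p = 0.0135). Zfp595 had 25.4, 27.5, 20.1 and 24.3 CPM in knockout mice 1 to 4, against 9.37, 14.8, 14.1 and 15.3 CPM in floxed mice 1 to 4, 1.76-fold higher without overlap (adjusted p = 0.0261). Zfp708, whose protein binds a retrotransposon family and helps to keep DNA methylation there in the mouse embryo, had 224, 251, 220.4 and 209 CPM in knockout mice 1 to 4, against 174, 138, 183 and 185 CPM in floxed mice 1 to 4. The difference was small, 1.30-fold (adjusted p = 0.0324), and all of its 50-base words are also annotated in Gm28557, a gene model that overlaps it in sequence, so its value is uncertain. The other 3 members of this cluster, Zfp748, Zfp738 and Zfp759, had 267 ± 56.4 CPM in knockout and 178 ± 44.0 CPM in floxed mice for Zfp748, 91.6 ± 8.21 CPM in knockout and 69.1 ± 20.8 CPM in floxed mice for Zfp738 and 84.4 ± 3.88 CPM in knockout and 83.1 ± 19.8 CPM in floxed mice for Zfp759, and did not pass.

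In a cluster of 6 members on chromosome 8, from 69209038 to 69791178, Zfp868 and Zfp869 were higher (33.3%) and 4 did not pass, where 14.4% of all tested genes were higher. Zfp868 had 29.3, 40.2, 34.5 and 39.4 CPM in knockout mice 1 to 4, against 10.2, 13.4, 21.8 and 17.2 CPM in floxed mice 1 to 4, a 2.23-fold difference without overlap (adjusted p = 0.00994). A second cluster of that chromosome, from 71882019 to 71993792, had 2 higher members of 4, Zfp617 and Zfp961. Zfp882 of the same cluster overlaps Zfp617 in the annotation and had 2.94 ± 2.04 CPM in knockout and 1.40 ± 0.882 CPM in floxed mice (adjusted p = 0.344). On chromosome 7, in the cluster from 43114229 to 43618285, the adjacent members Zfp936 and Zfp715 differed in opposite directions. Zfp936 had 134, 104, 108 and 110.0 CPM in knockout mice 1 to 4, against 178, 184, 177 and 204 CPM in floxed mice 1 to 4, 1.68-fold lower without overlap (adjusted p = 0.00156), where Zfp715 was higher. The cluster on chromosome 17 from 32765496 to 33110705 had Zfp763 as its only higher member among 5 tested.

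Over all clusters 15 of 63 tested members were higher (23.8%) and 8 lower (12.7%), and outside clusters 20 of 93 were higher (21.5%) and 15 lower (16.1%), where 14.4% of all tested genes were higher and 13.2% lower.

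The proteins encoded by the members were read from the annotated coding sequences. A KRAB pattern was found in 92 of the 164 members with a coding sequence (56.1%), in 42.6% of the Zfp genes with lower numbers and in 0.231% of 14734 genes of the table without a finger. Of the 88 tested members with the KRAB pattern, 24 were higher (27.3%) and 15 lower (17.05%), with a median log2 fold change of 0.35. Of the 67 tested members whose coding sequence lacks it, 10 were higher (14.9%) and 8 lower (11.9%), with a median of 0.08, where 14.4% of all tested genes were higher and 13.2% lower. The difference between these classes was not tested. How many KRAB domains the pattern missed was not checked. Zfp934 lacks the pattern, while Zfp808, which holds 34.8% of its 50-base words, has it. Most tested members with at least 20% of their 50-base words in another gene have the pattern, so the classes also differ in shared sequence. The number of C2H2 fingers per protein ranged from 0 to 33, with a median of 10, and Zfp619 had the most. Set against the same shares of all tested genes, 15 of 48 members with 13 or more fingers were higher (31.3%) and 7 lower (14.6%). With 8 to 12 fingers 11 of 56 were higher (19.6%) and 8 lower (14.3%), and with 1 to 7 fingers 7 of 45 were higher (15.6%) and 4 lower (8.89%). No finger pattern was found in the coding sequences of 6 members, of which Zfp703 was higher, Zfp750, Zfp781, Zfp839 and Zfp950 lower, and Zfp957 did not pass. Zfp939, whose matched transcript has no annotated coding sequence, is in none of these classes. It had 201, 247, 252 and 272 CPM in knockout mice 1 to 4, against 157, 142, 177 and 163 CPM in floxed mice 1 to 4, 1.48-fold higher without overlap. Zfp839 had 62.8, 70.3, 64.4 and 66.3 CPM in knockout mice 1 to 4, against 103, 97.1, 109.5 and 125 CPM in floxed mice 1 to 4, 1.69-fold lower without overlap.

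**Figure D4:**
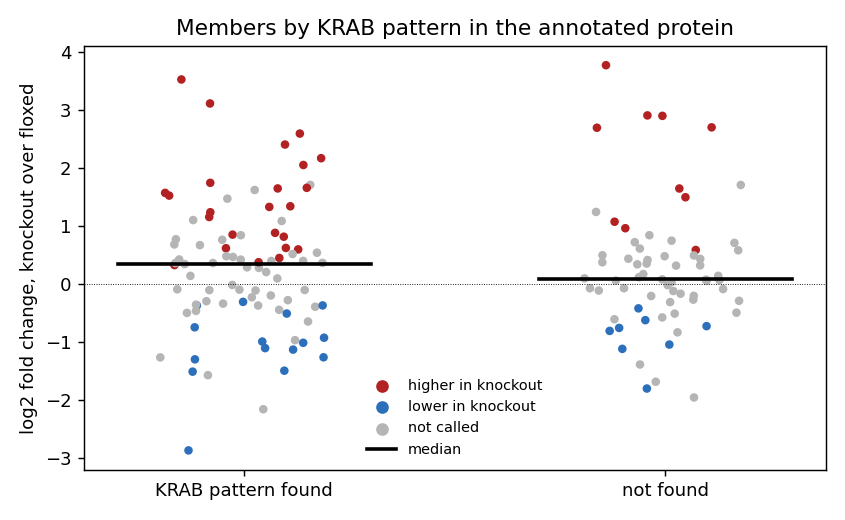
Log2 fold change, knockout over floxed (vertical axis), of each tested member, split by whether a KRAB pattern was found in its annotated protein (88 members, left) or not (67 members, right), with black bars at the medians of 0.35 and 0.08. Higher and lower members occur on both sides, and points are spread sideways for visibility only.

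Members with a studied role were looked at as a list of 24 genes, of which 20 were tested. Of these 4 were higher (Zfp532, Zfp687, Zfp703 and Zfp622), 3 lower (Zfp750, Zfp830 and Zfp932) and 13 did not pass, with a median log2 fold change of 0.21. These shares, 20.0% higher and 15.0% lower, lie near the 14.4% and 13.2% of all tested genes. Zfp592, Zfp687 and Zfp532 encode related proteins that in human cells associate with the chromatin reader ZMYND8. Zfp532 had 168, 138, 126 and 118 CPM in knockout mice 1 to 4, against 62.3, 58.9, 64.7 and 67.9 CPM in floxed mice 1 to 4, 2.11-fold higher without overlap (log2 fold change 1.07, SE 0.13, adjusted p = 0.000783). Zfp687 had 44.1, 44.1, 41.8 and 40.6 CPM in knockout mice 1 to 4, against 25.6, 16.7, 24.4 and 18.8 CPM in floxed mice 1 to 4, 1.95-fold higher without overlap (adjusted p = 0.00408). Zfp592 was the most abundant of the 3 per kilobase, with 64.3 CPM per kb in knockout and 58.5 CPM per kb in floxed mice. It had 469 ± 23.4 CPM in knockout and 427 ± 34.2 CPM in floxed mice and did not pass (adjusted p = 0.374, 95% interval of the log2 fold change from −0.07 to 0.27). Zfp703, which encodes a transcriptional corepressor, had 23.8, 37.0, 30.9 and 31.6 CPM in knockout mice 1 to 4, against 9.82, 10.1, 11.8 and 10.8 CPM in floxed mice 1 to 4. The groups were well apart, with a 2.82-fold rise (log2 fold change 1.50, SE 0.20, adjusted p = 0.00107).

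Members with roles in ribosomes and RNA did not move together. Zfp622, related to a yeast factor that matures the large ribosomal subunit, had 12.5, 6.57, 4.09 and 2.52 CPM in knockout mice 1 to 4, against 2.00, 0.939, 0.339 and 0.0930 CPM in floxed mice 1 to 4. The groups did not overlap and the fold was 7.51 (95% interval of the log2 fold change from 0.99 to 4.83, adjusted p = 0.0321). Its log2 fold change was 3.69 without floxed mouse 1, and the test was not passed without any 1 of knockout mouse 1, 2 or 3 or floxed mouse 2, 3 or 4 (adjusted p from 0.0550 to 0.0808). Zfp598, the ubiquitin ligase that marks collided ribosomes, had 61.3 ± 15.9 CPM in knockout and 57.2 ± 4.62 CPM in floxed mice (adjusted p = 0.843). Zfp638, an RNA-binding protein that in human cells silences retroviral DNA that has not integrated, had 368 ± 68.7 CPM in knockout and 389 ± 82.5 CPM in floxed mice (adjusted p = 0.674). Zfp830, a nuclear protein needed for pre-mRNA splicing and for survival of the mouse embryo before implantation, had 101, 116, 119.6 and 125 CPM in knockout mice 1 to 4, against 150.4, 168, 139 and 145 CPM in floxed mice 1 to 4. It was 1.34-fold lower without overlap (SE 0.10 on the log2 scale, adjusted p = 0.0122).

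Among further listed members known for silencing or for work with silencing enzymes, Zfp932 was lower, and Zfp809, Zfp568, Zfp618 and Zfp644 did not pass. Zfp708, described with its cluster and outside the list, was higher. Zfp932, which binds retroviral elements together with its paralogue Gm15446, had 179, 176, 169.6 and 175 CPM in knockout mice 1 to 4, against 229.7, 236, 249.6 and 254 CPM in floxed mice 1 to 4. The mice of each group were tightly grouped and did not overlap, a 1.42-fold decrease (SE 0.07 on the log2 scale, adjusted p = 0.00156), but 55.5% of its 50-base words are shared with other genes, mostly Gm15446. Zfp809, which recruits silencing to retroviruses in mouse embryonic cells, had 13.0 ± 4.79 CPM in knockout and 12.9 ± 1.39 CPM in floxed mice, with a log2 fold change of −0.02 and a 95% interval from −0.69 to 0.66. Zfp568, which represses a placental transcript of Igf2 in the mouse embryo, had 121, 146, 145 and 109 CPM in knockout mice 1 to 4, against 78.2, 80.0, 121 and 99.9 CPM in floxed mice 1 to 4. Its groups overlapped and it did not pass (log2 fold change 0.42, adjusted p = 0.0922, and 0.0393 without floxed mouse 3). Zfp618, a partner of UHRF2, had 44.9 ± 16.5 CPM in knockout and 26.9 ± 4.09 CPM in floxed mice and did not pass (adjusted p = 0.082, and 0.00729 without knockout mouse 1). Zfp644, which works with the histone methyltransferases G9a and GLP, had 61.1 ± 13.0 CPM in knockout and 47.7 ± 7.73 CPM in floxed mice (adjusted p = 0.248).

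Among regulators of differentiation, Zfp750, known from the epidermis, had 102, 110.0, 139 and 119 CPM in knockout mice 1 to 4, against 158, 221, 213 and 209 CPM in floxed mice 1 to 4, 1.75-fold lower without overlap (log2 fold change −0.81, SE 0.14, adjusted p = 0.00294). Zfp521, known from blood and nerve precursors, had 0.231, 4.27, 2.90 and 6.99 CPM in knockout mice 1 to 4, against 7.01, 8.25, 25.4 and 16.3 CPM in floxed mice 1 to 4. The groups did not overlap but the spread was wide, and it did not pass (95% interval of the log2 fold change from −3.49 to −0.43, adjusted p = 0.0587). It passed without knockout mouse 1 (adjusted p = 0.0312), knockout mouse 4 (0.0433) or floxed mouse 1 (0.0347). Zfp541, which acts in meiosis of male germ cells, had 130.2 ± 28.8 CPM in knockout and 91.0 ± 17.6 CPM in floxed mice and did not pass (adjusted p = 0.0913, and 0.0147 without knockout mouse 1). Zfp746, a repressor that is a substrate of parkin, had 39.0, 25.7, 18.7 and 16.6 CPM in knockout mice 1 to 4, against 23.1, 5.72, 6.62 and 6.04 CPM in floxed mice 1 to 4. Floxed mouse 1 was close to the knockout mice and the test was not passed (log2 fold change 1.24, adjusted p = 0.0926), while without that mouse the log2 fold change was 1.93 and the adjusted p 0.00334. Zfp609, a partner of the cohesin loader Nipbl, Zfp652, a transcriptional repressor, and Zfp516, known from brown fat, did not pass, with log2 fold changes of 0.35 for Zfp609, −0.09 for Zfp652 and −0.17 for Zfp516.

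Genes linked to silencing by KRAB zinc finger proteins were read as a second list of 23 genes, all tested. The list also held Zfp57 and Zfp445, which are KRAB zinc finger genes themselves. Of the 23 genes 3 were higher and 3 lower (13.0% each, near the 14.4% and 13.2% of all tested genes), with a median log2 fold change of 0.12. Trim28, the common corepressor, had 186 ± 35.2 CPM in knockout and 153 ± 18.4 CPM in floxed mice and Setdb1, the methyltransferase it recruits, had 388 ± 35.3 CPM in knockout and 319 ± 44.3 CPM in floxed mice, and neither passed (adjusted p = 0.24 for Trim28 and 0.158 for Setdb1). Daxx, a chaperone of histone H3.3, was 2.23-fold higher, at 169 ± 11.7 CPM in knockout and 74.0 ± 6.60 CPM in floxed mice (SD, n = 4 each, adjusted p = 0.000191). The methyltransferase gene Dnmt3b was 2.11-fold higher and Morc3, of the MORC ATPases, 1.51-fold. Zfp445, a KRAB zinc finger gene that guards imprints, was 1.99-fold lower, at 40.9 ± 11.6 CPM in knockout and 79.6 ± 23.0 CPM in floxed mice (adjusted p = 0.0249), while Zfp57, which shares that role, had 408 ± 19.4 CPM in knockout and 405 ± 78.6 CPM in floxed mice and did not pass (adjusted p = 0.908). Trim24 and Dnmt3l were 1.36-fold and 1.21-fold lower.

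Similarity between members limits how far single values can be read. At least 20% of the 50-base words of the transcript were also found in another annotated gene for 19 tested members, and for 72 of the 165 members none were. Of the 19, 8 were higher (42.1%) and 6 lower (31.6%). Of the other 137 tested members 27 were higher (19.7%) and 17 lower (12.4%). Of all tested genes 14.4% were higher and 13.2% lower. Taking both directions, 73.7% of the 19 and 32.1% of the 137 passed, against 27.6% of all tested genes. The log2 fold change of the 137 had a median of 0.17. Zfp781, with 96.3% shared, mostly with Gm3055, had 188 ± 11.5 CPM in knockout and 237 ± 19.9 CPM in floxed mice and was 1.29-fold lower. Zfp600, with 83.3% shared, mostly with Rex2, had 274 ± 45.2 CPM in knockout and 174 ± 19.8 CPM in floxed mice and was 1.53-fold higher. Zfp534, with 68.4% shared, mostly with Zfp987, had 66.6 ± 2.14 CPM in knockout and 51.8 ± 1.36 CPM in floxed mice and was 1.25-fold higher. In these genes reads of the member and of its relative may be mixed. Levels too low for a test were found for 9 members, Zfp599, Zfp647, Zfp658, Zfp697, Zfp711, Zfp771, Zfp799, Zfp811 and Zfp827, none of them above 12.2 CPM in any mouse. That highest value was Zfp771 in knockout mouse 1, where the other knockout mice had at most 0.526 CPM and the floxed mice at most 2.95 CPM.

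ZFP36 proteins bind the word UAUUUAU in mRNA, so its DNA form TATTTAT was counted on the sense strand of the annotated 3′ untranslated regions. It was present in 40 of the 151 tested members with an annotated region of at least 20 bases (26.5%), as in 27.7% of 13790 tested genes. Among higher members 10 of 32 had it (31.3%), among lower members 6 of 22 (27.3%) and among members that did not pass 24 of 97 (24.7%). Over all tested genes the shares were 31.8% for higher, 24.8% for lower and 27.3% for other genes. The median length of the regions was 1337 bases for higher members, 879.5 for lower members and 1307 for members that did not pass. Over all tested genes it was 1232 bases for higher, 906 for lower and 952 for other genes. The shares were not adjusted for length. Of the members that passed and hold the word, 6 were chosen after their values were seen, 4 higher and 2 lower, and 1 site of each is shown with 11 bases on each side, 5′ to 3′ on the strand of the gene, with the word in capitals and the gene's chromosome.
Zfp800, chromosome 6: agcctactgaaTATTTATaattatttgaa
Zfp953, chromosome 13: ctgagaccaacTATTTATccatctcctgc
Zfp712, chromosome 13: aattgtattacTATTTATcagtttatata
Zfp703, chromosome 8: accggactgtgTATTTATttactataatg
Zfp758, chromosome 17: caagtgtccatTATTTATaatctgtatca
Zfp950, chromosome 19: tgaagaccagtTATTTATttatagcatat
The words were found in members of both directions. Zfp950, which was lower, had 7 of them, more than any other member that passed, Zfp712 had 4 and Zfp953 2. The transcript read for Zfp950 has a coding sequence of 64 amino acids and a 3′ untranslated region of 4547 bases, so its 7 words depend on that annotation. Zfp800, Zfp703 and Zfp758 had 1 each, and Zfp954, Zfp617, Zfp937 and Zfp938 had none in their annotated regions.

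Single oocytes varied around the values of their mice, most at low levels. In counts thinned to 3000000 per oocyte, 150.9 ± 0.877 members were detected in knockout oocytes and 149.3 ± 1.99 in floxed oocytes as means of the mice (SD, n = 4 each), after 0 knockout and 3 floxed oocytes with fewer counts were left out. Without thinning 152.7 ± 0.911 were detected in knockout and 149.9 ± 1.62 in floxed oocytes. A count was present in all 50 oocytes for 121 members. The SD of log2(CPM + 1) between oocytes of a mouse, in mice with at least 5 oocytes, had a median of 0.479 over the tested members. It was 0.875 for the 22 members under 5 CPM, 0.551 for the 80 from 5 to 50 CPM and 0.271 for the 54 at 50 CPM or more.

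For 6 of the 156 tested members (3.85%) every knockout oocyte lay above every floxed oocyte, where this held for 0.878% of all tested genes. For 0 members was every knockout oocyte below every floxed oocyte, where this held for 0.732% of all tested genes. The 6 were Zfp800, Zfp953, Zfp617, Zfp937, Zfp704 and Zfp791. Zfp937 had 172 to 316 CPM in knockout oocytes (median 235) and 22.3 to 124 CPM in floxed oocytes (median 47.0). Zfp617 had 52.1 to 117 CPM in knockout oocytes (median 80.8) and 4.58 to 32.1 CPM in floxed oocytes (median 16.2). Zfp704 had 79.9 to 149 CPM in knockout oocytes (median 114) and 21.3 to 54.2 CPM in floxed oocytes (median 31.5). The 24 knockout and 26 floxed oocytes thus did not overlap for these genes, though oocytes of a mouse share their source and the mouse is the replicate. Zfp800 had a count in all 24 knockout oocytes and in 20 of the 26 floxed oocytes, with 6.47 to 54.7 CPM in knockout oocytes (median 14.2) and 0 to 3.08 CPM in floxed oocytes (median 1.07). Zfp791, with the smallest fold of the 6, had 139 to 257 CPM in knockout oocytes (median 194) and 49.8 to 131 CPM in floxed oocytes (median 106). Zfp954 had an overlap of a few oocytes, with 10.5 to 53.9 CPM in knockout oocytes (median 36.4) and 0 to 17.2 CPM in floxed oocytes (median 2.64), and 21 of the 24 knockout oocytes were above all floxed oocytes.

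Of the lower members, Zfp653 had the most knockout oocytes below all floxed oocytes, 21 of 24, with 38.5 to 91.2 CPM in knockout oocytes (median 54.7) and 66.3 to 146 CPM in floxed oocytes (median 98.4). By mouse sums Zfp653 was 1.66-fold lower (edgeR adjusted p = 0.0222). Its groups overlapped, with knockout mouse 1 at 91.2 CPM and floxed mouse 3 at 90.6 CPM. Its value is uncertain, since 20.5% of its 50-base words are shared with Gm49318. For Zfp839 19 of 24 knockout oocytes were below all floxed oocytes. It had 43.9 to 88.2 CPM in knockout oocytes (median 66.2) and 77.9 to 147 CPM in floxed oocytes (median 109). Zfp938 followed with 18 of 24, and had 0 to 19.2 CPM in knockout oocytes (median 3.18) and 8.01 to 79.7 CPM in floxed oocytes (median 51.0). Zfp944 had 22.1 to 93.6 CPM in knockout oocytes (median 54.5) and 62.0 to 193 CPM in floxed oocytes (median 139), with 14 of 24 knockout oocytes below all floxed oocytes, and Zfp758 had 13 of 24. Zfp655, at a similar level in both genotypes, had 673 to 891 CPM in knockout oocytes (median 781) and 461 to 827 CPM in floxed oocytes (median 741), and its SD between oocytes of a mouse had a median of 0.110 over the mice.

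**Figure D5:**
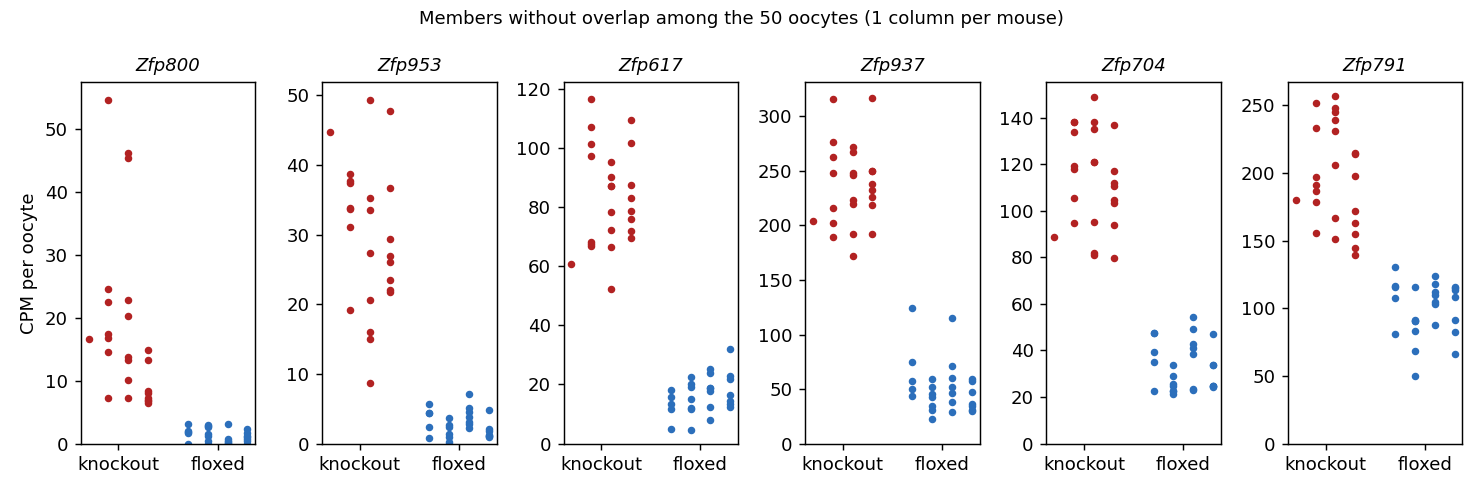
Level in each oocyte in CPM (vertical axes, from 0) for the 6 members without overlap between the 24 knockout oocytes (red, left) and the 26 floxed oocytes (blue, right), with 1 column of points per mouse. For Zfp937 the knockout oocytes lie at 172 to 316 CPM and the floxed oocytes at 22.3 to 124 CPM.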

How the data were processed

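Single oocytes were sequenced after extraction with Trizol and cDNA synthesis with the SMARTer Ultra Low Input kit, per the labels' protocols. The table that the authors deposited holds unnormalized counts of reads, as whole numbers, for each gene and oocyte. STAR and the mm10 build are named in the submitters' processing notes, and the sources used here give neither the counting tool nor its handling of strand and of multi-mapping reads. Such reads could add to or be lost from members with close relatives. No molecular identifiers are named, and PCR copies are not independent molecules, so intervals hold for counting error and the spread between mice alone. The labels do not say whether mice were litter mates.

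Counts were summed per mouse (4 knockout and 4 floxed) after all 150 pairs of oocytes of a mouse had been compared (chi-square per degree of freedom 5.39 to 28.2, so none was taken as a copy). The sums were tested with edgeR 4.0.16 in R 4.3.3 (quasi-likelihood test after TMM scaling and filterByExpr at min.count 10, with Benjamini-Hochberg adjustment and a threshold of 0.05), which kept 15029 genes. SE is that of the log2 fold change. The common biological coefficient of variation was 35.4%. Data were simulated for 4 mice in each group and 15029 genes, with that same coefficient for every gene. Of the genes changed 4-fold 86.4% were recovered, of those changed 2-fold 10.4% and of those changed 1.5-fold 2.99%, with 4 false calls. Among members that passed, 23 of 35 higher and 11 of 23 lower ones changed at least 2-fold. The others changed less, down to 1.25-fold with an SE of 0.10 among the higher members (Zfp534). Whether the recovered shares hold at the SE of each gene was not tested. DESeq2 1.42.0 and limma 3.58.1 were alternatives.

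Coordinates, transcripts, coding sequences and 3′ untranslated regions came from GENCODE vM21 (mm10), matched by RefSeq accession for 164 members and by symbol for 1, and promoters from RefSeq's GRCm38.p6 table. For each gene the longest matched transcript was read, a protein-coding transcript where the match held any. Finger and KRAB patterns were searched in translated coding sequences. The rule for named genes took, among members that passed, had groups apart and averaged at least 5 CPM, the 10 at each end of the log2 fold changes, the 8 members with the highest CPM and the tested members with a studied role. The members of clusters, those near the detection limit, those with much shared sequence, those with no finger, Zfp939, Zfp653 and Zfp791 were named after their values were seen. The members and lists were chosen with earlier results of these data known.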

Additional observations from a re-analysis of the deposited data

Results flagged for a closer look

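Within the 4 mice of a group, 1 mouse stood far apart from the others for 4 of the 110 combinations of named member and genotype that were checked, where chance gives about 1 in 20. Zfp638 had 265 CPM in knockout mouse 1, below the other knockout mice at 392 to 410 CPM, and floxed mouse 1 was the lowest of its group too, at 268 CPM. Zfp943 had 50.6 CPM in knockout mouse 1, above the other knockout mice at 24.2 to 28.0 CPM and within the floxed range. Zfp746 had 23.1 CPM in floxed mouse 1, above the other floxed mice at 5.72 to 6.62 CPM. Zfp809 had 10.9 CPM in floxed mouse 1, below the other floxed mice at 13.5 to 13.8 CPM. All 4 values belong to a mouse numbered 1. Knockout mouse 1 is a single oocyte. Unnamed members were not checked, and for some of them mouse 1 stood far from its group in both genotypes. Zfp575 had 45.9 CPM in knockout mouse 1 and 2.45 to 4.36 CPM in the other knockout mice. It had 27.4 CPM in floxed mouse 1 and 0.651 to 2.94 CPM in the other floxed mice. For Zfp777 the values were 95.1 against 14.2 to 26.6 CPM in knockout mice and 49.4 against 5.39 to 9.27 CPM in floxed mice. Such members were not counted.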

How the results depend on the processing

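Of the 58 members that passed, 43 to 58 passed again in the same direction in each of the 17 alternatives, and the others did not pass or were not tested. None passed in the opposite direction. Of the 53 members followed singly, 33 had passed. Of these 27 passed in all 17, 5 missed the threshold at least once and Zfp800 was not tested under the filter of 10 CPM. None of the 33 changed sign, and 7 of the 20 that had not passed did. Leaving out 1 mouse gave 24 to 42 higher members, 16 to 31 lower members and a median log2 fold change of 0.11 to 0.25. Of all tested genes 17.7% to 34.7% passed in these fits. Without mouse 1 of both genotypes 52 members were higher and 36 lower, where 43.9% of all tested genes passed, and the median was 0.13. The median was also 0.13 with a filter of 10 CPM in at least 4 mice and 0.14 with single oocytes in limma voom. The cause was not tested. DESeq2 gave 42 higher and 31 lower, where 36.1% of all tested genes passed, and limma voom 52 and 31, where 44.9% did. The difference between knockout and floxed oocytes in members detected per oocyte was 1.62 with at least 1 count and 3.92 with at least 5. The labels give no pairing of mice, and the correlations of same-numbered mice (0.32, −0.004, 0.25 and 0.18) were not all over 0.1. By that rule the main fit was left without pairs, which does not show that same-numbered mice share nothing. Knockout mice 1, 3 and 4 correlated best with the floxed mouse of their number and knockout mouse 2 did not. With the mouse number as a replicate block 50 members were higher and 33 lower, where 38.7% of all tested genes passed. The median log2 fold change of the members was then 0.22. Zfp521, Zfp541, Zfp568, Zfp746 and Zfp951, which had not passed, did so with that block (adjusted p from 0.00344 to 0.0354). Oocytes under 3000000 counts were left out as an alternative chosen after seeing the data (35 higher, 26 lower, with 28.3% of all tested genes passing). Members near the detection limit were at the limit of what 4 mice in each group can show. So were changes under 2-fold in members with a wide spread. Some members with a small SE passed below 2-fold, such as Zfp791 (1.84-fold, SE 0.10) and Zfp750 (1.75-fold, SE 0.14).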
